A study of Mus musculus with 4 samples.

Results

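Cubilin (Cubn), the proteins that act with it at the cell surface and the proteins that carry and take up cobalamin were examined in RNA-seq libraries of mouse small intestinal (SI) organoids. The 7 genes were Cubn, Amn, Lrp2, Dab2, Lrpap1, Tcn2 and Cd320, of 55487 genes in the deposited tables. Cubn was selected on its measured rise in this experiment, so its values are a description and carry no test. The other 6 genes were chosen for what they do in cubilin-dependent uptake of proteins and cobalamin, and not for their own values.

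The experiment asked which RNAs change when miR-181a-5p is overexpressed in intestinal epithelial cells. Organoids grown from mouse intestinal crypts in IntestiCult medium were transduced with lentivirus for a miR-181a-5p mimic or for a control mimic, and both kinds were held in puromycin at 2 μg/ml. Of the 4 libraries, 2 came from mimic control organoids (replicates 1 and 2) and 2 from miR-181a-5p mimic organoids (replicates 3 and 4). The sources used here do not tie these organoids to a strain, sex or age of mouse, and do not say whether replicates were transduced separately. The p-values therefore measure only the spread between these libraries, which may be technical. The libraries held between 31104884 and 38111731 expected counts, which are estimates of the reads from each gene. Mitochondrial transcripts took 4.30% and 4.55% of the counts with the control, against 3.46% and 3.43% with the mimic, and their part in the results below was not tested. The level of mature miR-181a-5p was not measured in these libraries.

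Cubilin is a very large extracellular receptor with no membrane anchor of its own. It is held at the apical membrane by amnionless, the product of Amn, and the complex of both is called cubam. In the ileum cubam takes up intrinsic factor with its cobalamin, and in the kidney it takes up albumin, transferrin and apolipoprotein A-I, there together with megalin, the product of Lrp2. Dab2 is the clathrin adaptor that binds the tails of megalin and amnionless, and Lrpap1 encodes the receptor-associated protein (RAP), a chaperone that keeps ligands off receptors of the megalin family during folding. Inside the enterocyte cobalamin is released from intrinsic factor and leaves on transcobalamin (Tcn2), which other cells bind through the transcobalamin receptor (Cd320). In rodents the neonatal ileum is known for strong endocytic uptake of whole proteins through cubilin and Dab2.

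The miRNA that the construct supplies is shown first, because its seed, the bases that pair with a target, decides which messages it can match. The mature sequence from RefSeq (GRCm38.p6) has 23 bases and is encoded at chr1:137966468-137966490 and at chr2:38852741-38852763, both on the plus strand. Capitals mark the seed, bases 2 to 8.
mmu-miR-181a-5p: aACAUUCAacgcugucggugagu
The matching site in a message is TGAATGT. For each gene only the longest annotated 3' UTR and the longest annotated coding sequence were searched. The site was found in none of these 3' UTRs of the 7 genes, which ranged from 297 bases in Amn to 1936 bases in Dab2. Other annotated 3' UTRs of these genes were not searched. Among all tested genes with a 3' UTR of at least 50 bases, 2468 of 12913 (19.1%) had a site. In coding sequence the site was found once in Cubn and at 2 places in Lrp2, and in no other gene of the 7. The coding share of all tested genes was 12.7%, or 1665 of 13099, and the coding sequences of Cubn and Lrp2, of 10869 and 13980 bases, were the longest of the 7. The sites are shown with 10 bases on each side in the direction of the message, with the match in capitals. The site of Cubn lies at chr2:13326766-13326772 and those of Lrp2 at chr2:69442864-69442870 and chr2:69442807-69442813, all on the minus strand of GRCm38.
Cubn coding site: tgcagccgtgTGAATGTgaccaatgag
Lrp2 first coding site: aagacatcaaTGAATGTgaggagtttg
Lrp2 second coding site: aaggaagttaTGAATGTttctgtgtcg
A match describes these letters only and does not show binding.

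Cubn was low in both control libraries and higher in both mimic libraries. The gene (ENSMUSG00000026726) spans 215476 bases at chr2:13276338-13491813 on the minus strand, and its longest coding transcript has 67 exons and 3623 codons. Expected counts were 90 and 61.1 with the control, against 467.69 and 1145.8 with the mimic. On the TPM scale, which divides by transcript length, Cubn stood at 0.25 and 0.21 in the controls against 1.63 and 3.86 with the mimic. The groups did not overlap, and the mimic libraries lay further apart than the controls. In normalised CPM, the count scaled to a common library size, the higher control was 1.19 times the lower one, and mimic replicate 4 was 2.15 times mimic replicate 3. The lowest mimic library stood 6.37 times above the highest control. Group means were 2.16 ± 0.268 CPM with the control and 23.6 ± 12.2 CPM with the mimic (SD, n = 2 each). The fitted log2 fold change was 3.44 (SE 0.37), a 10.9-fold difference. Without mimic replicate 4 the fitted log2 fold change was 2.79, and without mimic replicate 3 it was 3.90. Among all listed genes by TPM, Cubn ranked 18420 and 18492 in the controls against 12220 and 10651 with the mimic.

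A transcript on the other strand overlaps the 3' end of Cubn and shared reads with it. Gm13270 is annotated as a processed transcript at chr2:13271601-13325827 on the plus strand. Its expected counts were 55 and 27.9 in the controls against 34.31 and 37.2 with the mimic, and the groups overlapped. Counts of both genes had fractions in 3 of the 4 libraries, but their sums were whole in all 4, at 145 and 89 in the controls against 502 and 1183 with the mimic. How strand was treated in the counting is not given in the sources used here, so part of either gene's reads may belong to the other. Summed over both genes, the level was 3.33 ± 0.643 CPM in the controls and 24.6 ± 12.2 CPM with the mimic (SD, n = 2 each). The log2 ratio of these group means was 2.89, against 3.45 for Cubn alone. Gm13270 had a log2 fold change of -0.16 (SE 0.34) and an adjusted p of 0.807 by edgeR's quasi-likelihood test.

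The transcript length behind the Cubn values was similar in every library. The count divided by the TPM gives the effective length the quantification assumed, and this length relative to the median of 10993 well-counted genes was 4.87 and 4.96 in the controls against 4.77 and 4.69 with the mimic. The log2 difference between the groups was -0.0561, against a median absolute difference of 0.0259 and a 95th percentile of 0.161 over those genes. Amn had a difference of -0.00321, the smallest among the members that could be computed. For Cubn in the controls, rounding of the deposited TPM alone can move the ratio by up to 2.38%.

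Amn, which anchors cubilin in the membrane, was higher in both mimic libraries than in either control, but it did not pass the test over all genes. The gene (ENSMUSG00000021278) lies at chr12:111271095-111276426 on the plus strand and encodes 458 codons in 12 exons. Expected counts were 333 and 297 in the controls against 485 and 438 with the mimic. TPM were 6.38 and 7.26 in the controls against 11.45 and 9.93 with the mimic. The groups did not overlap, and the lowest mimic library stood 1.28 times above the highest control in normalised CPM. Group means were 9.13 ± 0.635 CPM and 13.9 ± 2.25 CPM (SD, n = 2 each). The log2 fold change was 0.60 (SE 0.17, 95% interval 0.21 to 0.999), with an unadjusted p of 0.00791 and an adjusted p of 0.0906 by the quasi-likelihood test of edgeR (Benjamini-Hochberg). Over 15 alternatives the log2 fold change stayed between 0.44 and 0.77, and the adjusted p lay between 0.0399 by edgeR's exact test, the lone pass, and 0.422 with edgeR's quasi-likelihood test without mimic replicate 3.

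**Figure D1:**
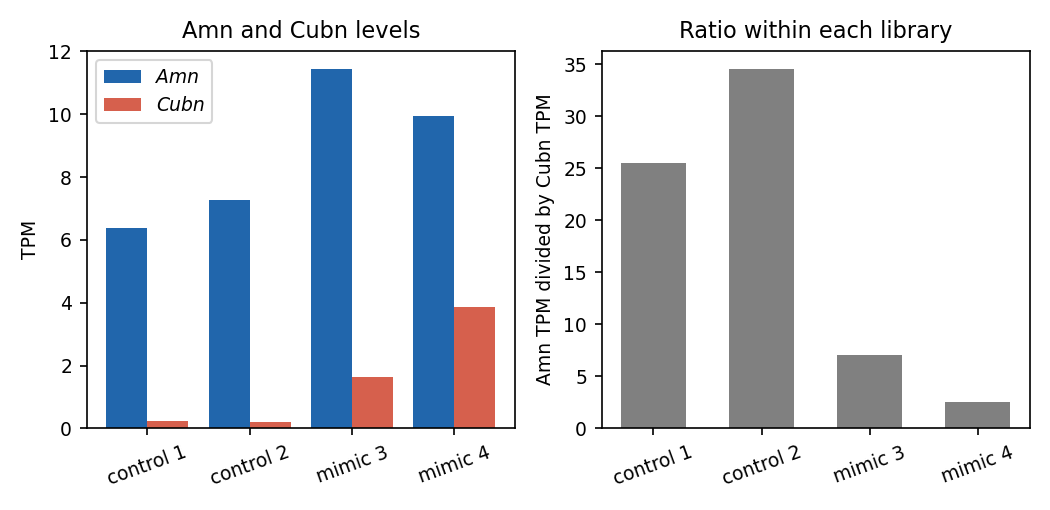
Bars give the TPM of Amn and Cubn in each of the 4 libraries (left) and the TPM of Amn divided by that of Cubn in the same library (right). Amn stood above Cubn everywhere, by 25.5 and 34.6 times in the controls against 7.02 and 2.57 times with the mimic.

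Amn messages outnumbered those of Cubn in every library on the TPM scale. The ratio of Amn to Cubn was 25.5 and 34.6 in the controls against 7.02 and 2.57 with the mimic. The ratio was lower in both mimic libraries, and it was lowest in mimic replicate 4, the library with the most Cubn. As the ratio contains Cubn, its difference between the groups follows from the choice of that gene and has no test.

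Megalin was not detected beyond 1 count. Lrp2 (ENSMUSG00000027070, chr2:69424340-69586065, minus strand, 4660 codons in 79 exons) had 0 and 1 counts in the controls against 0 and 0 with the mimic, and it was listed at 0 TPM in all 4 libraries. It did not pass the filter on low counts and was not tested. A count of 0 allows a level of up to 0.0787 CPM in control replicate 1, 0.0964 CPM in mimic replicate 3 and 0.0849 CPM in mimic replicate 4, counting error only.

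Dab2, the adaptor of cubam and megalin, was near the lower end of what could be tested and varied widely within each group. The gene (ENSMUSG00000022150) lies at chr15:6299788-6440712 on the plus strand. Expected counts were 53 and 6 in the controls against 9 and 35 with the mimic. TPM were 0.87 and 0.17 in the controls against 0.19 and 0.44 with the mimic. Both mimic libraries lay between the controls, so the groups overlapped. The controls differed 7.14 times and the mimic libraries 3.42 times in normalised CPM. The log2 fold change was -0.35 (SE 0.79, 95% interval -2.20 to 1.498), with an adjusted p of 0.819 by edgeR's quasi-likelihood test. This interval holds changes of more than 2-fold in either direction, and the sign turned without control replicate 1 (1.73) and without mimic replicate 3 (0.25). The effective length behind Dab2 also moved between libraries, at 0.824 and 0.601 of the median in the controls against 0.787 and 1.26 with the mimic, where 14 transcripts are annotated.

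Lrpap1, the chaperone RAP, was well detected and showed no difference past the spread between replicates. The gene (ENSMUSG00000029103) lies at chr5:35091501-35105766 on the minus strand. TPM were 20.92 and 15.96 in the controls against 16.12 and 17.51 with the mimic, and on this scale the mimic libraries lay between the controls. Normalised CPM were 29.73 and 22.75 in the controls against 22.32 and 25.56 with the mimic. On that scale mimic replicate 3 lay below both controls, and the groups still overlapped. Expected counts were 1140 and 705 in the controls against 699 and 910 with the mimic. The log2 fold change was -0.13 (SE 0.16, 95% interval -0.50 to 0.23), with an adjusted p of 0.634 by edgeR's quasi-likelihood test.

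Tcn2 was the most abundant of the 7 messages by TPM and differed least. The gene (ENSMUSG00000020432) lies at chr11:3917192-3932159 on the minus strand, and its product, transcobalamin, carries cobalamin in the blood. TPM were 53.87 and 57.19 in the controls against 52.21 and 63.39 with the mimic, so the groups overlapped. Expected counts were 3207 and 2710 in the controls against 2529 and 3162 with the mimic. The log2 fold change was -0.013 (SE 0.099, 95% interval -0.24 to 0.22), with an adjusted p of 0.951 by edgeR's quasi-likelihood test.

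Cd320, the receptor for transcobalamin, was lower in both mimic libraries in normalised CPM and did not pass the test. The gene (ENSMUSG00000002308) lies at chr17:33843091-33849774 on the plus strand. Expected counts were 269 and 182 in the controls against 167 and 182 with the mimic, or 7.02 and 5.87 against 5.33 and 5.11 in normalised CPM. TPM were 7.49 and 6.23 in the controls against 5.98 and 6.29 with the mimic, a scale on which the groups overlapped. The log2 fold change was -0.31 (SE 0.19, 95% interval -0.75 to 0.13), with an adjusted p of 0.349 by edgeR's quasi-likelihood test. The TPM of Tcn2 stood above that of Cd320 by 7.19 and 9.18 times in the controls against 8.73 and 10.1 times with the mimic, with overlapping groups.

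**Figure D2:**
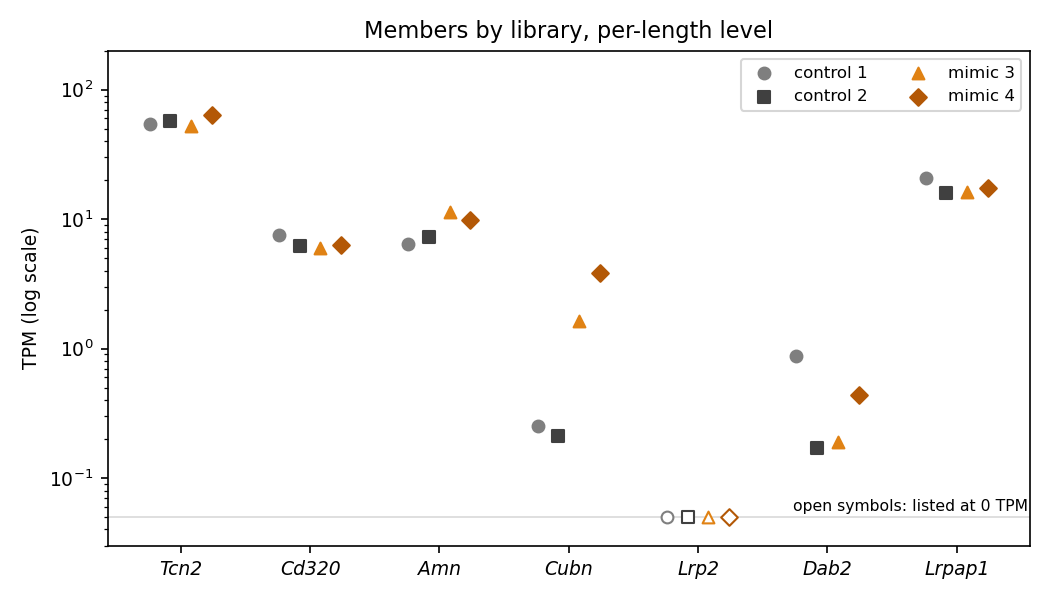
Each symbol is the TPM of a gene in 1 of the 4 libraries, on a log scale, with open symbols for the gene listed at 0 TPM. Cubn went from 0.21 and 0.25 in the controls to 1.63 and 3.86 with the mimic, Lrp2 was at 0 throughout, and Tcn2, Cd320, Dab2 and Lrpap1 had overlapping groups.

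By TPM the 7 genes kept much of their order in both groups. Tcn2 came first and Lrpap1 came next in every library. Amn and Cd320 overlapped in the controls, whereas with the mimic both values of Amn lay above both values of Cd320. Cubn and Dab2 overlapped in the controls, whereas with the mimic both values of Cubn lay above both values of Dab2. Lrp2 was last. Summed over the 7 genes the TPM was 89.8 and 87.0 in the controls against 87.6 and 101 with the mimic, and Cubn took 0.278% and 0.241% of this sum in the controls against 1.86% and 3.81% with the mimic.

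Of the 7 genes, 6 passed the filter on low counts. Among the 5 tested genes other than Cubn, the quasi-likelihood test of edgeR (Benjamini-Hochberg) called 0, and 1 (Amn) had an unadjusted p under 0.05, as did 4250 of all 17155 tested genes (24.8%). The exact test of edgeR called 1 of the 5, again Amn, DESeq2 called 0, and limma on log2(TPM + 1) called 0 of the 4 it tested. Over all 17155 tested genes, 220 (1.28%) rose and 392 (2.29%) fell with the mimic at an adjusted p under 0.05. In normalised CPM, groups that did not overlap were found for Amn, higher with the mimic, and for Cd320, lower with the mimic. The same held for 28.9% of all tested genes in the higher direction and 29.5% in the lower direction, so a lack of overlap was common in these libraries. An exact permutation test on any gene here, 2 libraries against 2, has a smallest p of 0.333.

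**Figure D3:**
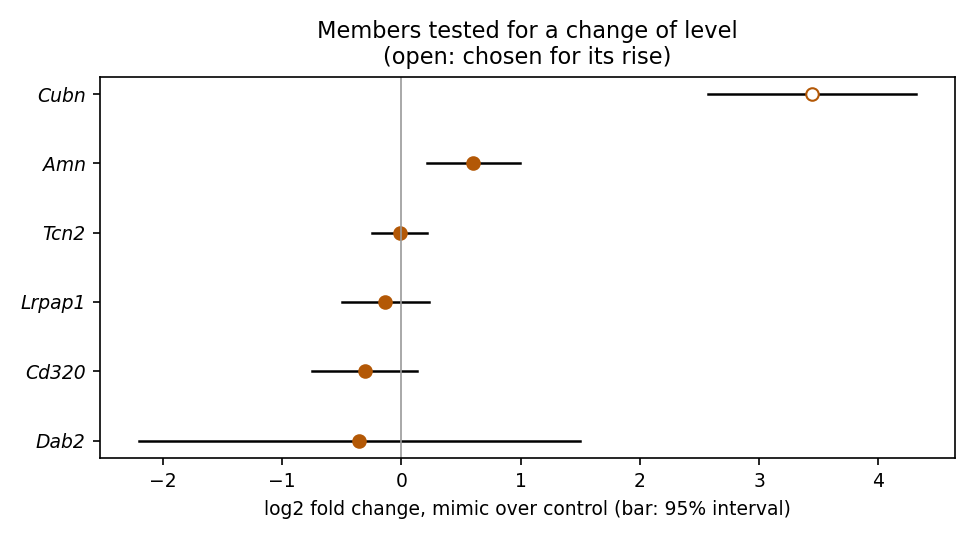
Points give the fitted log2 fold change, mimic over control, and bars its 95% interval for the 6 genes that passed the filter on low counts. Cubn, the open point, was selected on this value, so its interval is a description and carries no test. The intervals of Tcn2, Lrpap1, Cd320 and Dab2 include 0, and that of Dab2 is the widest, from -2.20 to 1.498.

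The genes most like Cubn over the 4 libraries encode proteins of other kinds. Likeness was the root mean square distance between log2 CPM profiles centred on their own mean, among 12674 genes with at least 50 counts on average in the mimic libraries. The nearest was Prss32, a serine protease, at a distance of 0.297. Its expected counts were 93.79 and 102.61 in the controls against 588.13 and 1128.02 with the mimic, with mimic replicate 4 above replicate 3 as for Cubn. It was followed by Col4a2 (0.397), a collagen of the basement membrane, Naaladl1 (0.416), a peptidase of the brush border, and Slc16a7 (0.422), a monocarboxylate transporter. Msln (0.455), which encodes mesothelin, and 5730507C01Rik (0.477) completed the nearest 6. Their log2 fold changes ran from 2.83 for Msln to 4.09 for 5730507C01Rik and, being chosen for likeness to Cubn, carry no test. Amn had a distance of 1.46 and ranked 591, and Tcn2, Lrpap1 and Cd320 ranked 6780, 8387 and 10613.

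The genes beside Cubn on chromosome 2 had much smaller differences than Cubn. Of the 3 nearest tested genes on each side and the overlapping Gm13270, edgeR's quasi-likelihood test called 0, with 0 at an unadjusted p under 0.05. The exact test and DESeq2 also called 0 of these 7, and limma on TPM called 0 of the 4 it tested. Rsu1, 4923 bases away, had a log2 fold change of -0.17 (SE 0.17), and Trdmt1, 17201 bases away, had -0.30 (SE 0.34). Vim, which encodes the intermediate filament vimentin and lies 82114 bases away, was the highest of them at 0.56 (SE 0.25), with an adjusted p of 0.215 by edgeR's quasi-likelihood test. Beside Amn, Traf3 at 3942 bases had a log2 fold change of 0.31 (SE 0.11, adjusted p = 0.138) and Cdc42bpb at 16550 bases had 0.12 (SE 0.10, adjusted p = 0.488) by edgeR's quasi-likelihood test. All 6 tested genes beside Amn lay above 0, from 0.093 (Exoc3l4, SE 0.19) to 0.39 (Gm48632, SE 0.25). That test called 0 of these 6, with 1 (Traf3) at an unadjusted p under 0.05.

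**Figure D4:**
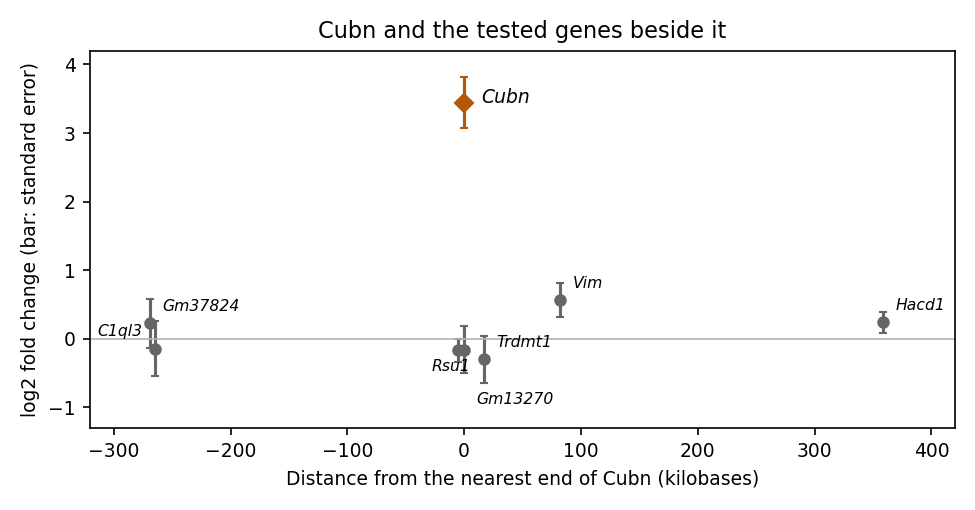
Points give the log2 fold change, mimic over control, with its standard error, against the distance in kilobases from the nearest end of Cubn, with the overlapping Gm13270 at 0. Cubn stands at 3.44 and the 7 genes around it lie between -0.30 and 0.56.

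The cobalamin route, counted with the members Tcn2 and Cd320, stayed close to its control level. Of 16 genes for the transport and use of cobalamin, 15 were tested and edgeR's quasi-likelihood test called 0. At an unadjusted p under 0.05 there was 1, against 24.8% of all tested genes. The exact test, DESeq2 and limma on TPM also called 0. Log2 fold changes lay between -0.31 (Cd320) and 0.29, with 5 above 0, 10 below and a median of -0.13, against -0.012 over all tested genes. Lmbrd1, which is needed to export cobalamin from the lysosome, stood at 35.86 and 40.98 TPM in the controls against 39.13 and 44.75 TPM with the mimic. Mmadhc, which directs cobalamin to its enzymes, had a log2 fold change of 0.10 (SE 0.10), and Mcee, an enzyme of the pathway that ends at the cobalamin-dependent mutase, had -0.071 (SE 0.12). The gene for intrinsic factor itself (Cblif), named here for its role, had expected counts of 5 and 2 in the controls against 1 and 1 with the mimic and was not tested.

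Among messages for ligands of cubilin and megalin, 1 rose and 0 fell past the threshold of edgeR's quasi-likelihood test. Of 12 genes, 8 were tested, 7 had a log2 fold change below 0, some of them at few counts, and the median was -0.84. At an unadjusted p under 0.05 there were 6 of the 8, against 24.8% of all tested genes. The exact test called 3, DESeq2 2 and limma on TPM 0 of the 6 it tested. Clu, which encodes the secreted chaperone clusterin, rose from expected counts of 62 and 41 in the controls to 146 and 128 with the mimic. Its log2 fold change was 1.47 (SE 0.27), with an adjusted p of 0.0340 by edgeR's quasi-likelihood test and of 0.102 without mimic replicate 3. Among those that did not pass, Apoa1, apolipoprotein A-I, had a log2 fold change of -0.40 (SE 0.14) and was measured at 172.15 and 187.16 TPM in the controls against 116.82 and 168.97 TPM with the mimic. Ttr, the thyroid hormone carrier transthyretin, had -1.10 (SE 0.25, adjusted p = 0.0599 by edgeR's quasi-likelihood test), and Trf, transferrin, had -0.89 (SE 0.29). B2m, the light chain of class I molecules, had -0.23 (SE 0.10). Of the untested ligands Alb had between 5 and 12 counts, while Gc and Scgb1a1 were listed at 0 in all 4 libraries.

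The endocytic machinery that cubam uses was abundant, and most of its genes had small log2 fold changes above 0 that did not pass the test. Of 22 adaptor and clathrin genes, edgeR's quasi-likelihood test called 0, with 1 at an unadjusted p under 0.05, and log2 fold changes lay between -0.14 and 0.48 (Synj2), with 17 above 0, 5 below and a median of 0.13. The exact test called 1 of the 22, and DESeq2 and limma on TPM called 0. Ap2m1, a subunit of the AP-2 adaptor, stood at 163.74 and 182.81 TPM in the controls against 194.16 and 216.52 TPM with the mimic. Clta, a clathrin light chain, had a log2 fold change of 0.22 (SE 0.10), Cltc, the heavy chain, 0.11 (SE 0.13) and Myo6, the motor that draws endocytic vesicles inwards, -0.014 (SE 0.096). Of 19 endosome and recycling genes, 17 were tested and 0 were called, with 6 at an unadjusted p under 0.05 (24.8% over all tested genes). They ranged from -0.36 to 0.41 (Clcn5), with 13 above 0, 4 below and a median of 0.14. The exact test and DESeq2 each called 1 of these 17, and limma on TPM called 0. Rab11a, a GTPase of recycling endosomes, had a log2 fold change of 0.091 (SE 0.12), and its relative Rab11b had 0.25 (SE 0.092). Rab7 of late endosomes had 0.21 (SE 0.11), and Vps35 of the retromer coat had 0.21 (SE 0.10).

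By edgeR's quasi-likelihood test, the receptor family to which megalin belongs held 1 member that rose. Lrp12 went from 0.74 and 1.04 TPM in the controls to 2.20 and 3.56 TPM with the mimic. The groups did not overlap, as in normalised CPM for 28.9% of all tested genes in the higher direction. The log2 fold change of Lrp12 was 1.73 (SE 0.26), with an adjusted p of 0.0206 by edgeR's quasi-likelihood test. Of 12 family genes and chaperones 11 were tested, 6 had a log2 fold change above 0 and 5 below, and the median was 0.032. At an unadjusted p under 0.05 there were 5 of the 11, against 24.8% of all tested genes. The exact test and DESeq2 each called 3, and limma on TPM called 0. Lrp6 and Lrp4, which act in Wnt signaling, had log2 fold changes of -0.16 (SE 0.093) and -0.29 (SE 0.091). Lrp10 and Lrp8 had 0.43 (SE 0.11) and 0.58 (SE 0.15), with adjusted p of 0.0703 and 0.0762 by edgeR's quasi-likelihood test.

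Lysosomal genes, whose products digest what the receptors bring in, held 1 gene that fell among 20 tested by edgeR's quasi-likelihood test. Over all tested genes 2.29% fell by that test. At an unadjusted p under 0.05 there were 6 of the 20, against 24.8% of all tested genes. Ctsh, the protease cathepsin H, went from 72.63 and 59.29 TPM in the controls to 35.98 and 47.65 TPM with the mimic. Its log2 fold change was -0.81 (SE 0.15), with an adjusted p of 0.0340 by edgeR's quasi-likelihood test and of 0.0816 without mimic replicate 3. The list had a median of 0.016, with 11 genes above 0 and 9 below. Lamp1 and Cd63, proteins of the lysosomal membrane, had log2 fold changes of 0.18 (SE 0.12) and -0.022 (SE 0.095), and the proteases Ctsb and Ctsd had 0.20 (SE 0.15) and 0.23 (SE 0.11).

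Cubilin is an ileal receptor, so genes of the ileal and the suckling enterocyte were set beside genes of the duodenal enterocyte. Of 10 ileal and suckling-type genes, 9 were tested, none rose and 1 fell by edgeR's quasi-likelihood test, with a median of 0.17. Over all tested genes 1.28% rose and 2.29% fell by that test. At an unadjusted p under 0.05 there were 5 of the 9, against 24.8% of all tested genes. The gene that fell was Prdm1, which encodes Blimp-1, a repressor known to hold the intestine in its suckling state. It had expected counts of 213 and 179 in the controls against 84 and 105 with the mimic, a log2 fold change of -1.01 (SE 0.20) and an adjusted p of 0.0460 by edgeR's quasi-likelihood test. That call was lost without control replicate 1 (0.0625), without mimic replicate 3 (0.173) and without mimic replicate 4 (0.0738). Among those that did not pass, Nr1h4, the bile acid receptor FXR, had a log2 fold change of -0.37 (SE 0.11), Lct, lactase, 0.69 (SE 0.28), Pllp, an endosomal protein of absorptive cells, 0.17 (SE 0.13) and Slc51b, a bile acid exporter subunit, 0.0011 (SE 0.31). The highest values of the list were those of Fgf15, an ileal hormone, at 1.60 (SE 0.44, adjusted p = 0.0884) and Slc10a2, the ileal bile acid transporter, at 1.19 (SE 0.39, adjusted p = 0.123) by edgeR's quasi-likelihood test. For both the groups did not overlap, as for 28.9% of all tested genes in the higher direction. Fgf15 was under 1 TPM in every library, with expected counts of 18.22 and 6 in the controls against 34.88 and 34.57 with the mimic. Slc10a2 had expected counts of 100 and 86 against 113 and 305, so most of its difference lay in mimic replicate 4. The exact test called 2 genes of this list, DESeq2 1 and limma on TPM 0. Fabp6, the ileal bile acid binding protein and the defining marker of the list, had 0, 1, 1 and 0 counts.

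Duodenal genes were lower with the mimic in all 6 cases by sign, and 2 of them fell past the threshold of edgeR's quasi-likelihood test. Over all tested genes 2.29% fell past it. At an unadjusted p under 0.05 there were 4 of the 6, against 24.8% of all tested genes. The list was written with earlier results known, and its largest falls were those of the iron genes Slc40a1, Cybrd1 and Slc11a2. The exact test called 4 of the 6, and DESeq2 and limma on TPM called 2 each. Slc40a1, the iron exporter ferroportin, went from 20.91 and 49.24 TPM in the controls to 0.14 and 0.64 TPM with the mimic. Its log2 fold change was -6.69 (SE 0.64), with an adjusted p of 0.00564 by edgeR's quasi-likelihood test. Onecut2, a transcription factor of the proximal intestine, went from 18.07 and 20.38 TPM to 8.78 and 8.98 TPM, with a log2 fold change of -1.18 (SE 0.10) and an adjusted p of 0.00473 by edgeR's quasi-likelihood test. Slc11a2 and Cybrd1, which take up dietary iron, had log2 fold changes of -1.63 (SE 0.47) and -2.09 (SE 0.49) with adjusted p of 0.0950 and 0.0634 by edgeR's quasi-likelihood test. Gata4 and Heph had -0.19 (SE 0.10) and -0.13 (SE 0.11).

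Transporters of other vitamins held 1 gene that fell. Slc19a2, a thiamine transporter, went from 27.06 and 31.07 TPM in the controls to 20.47 and 21.39 TPM with the mimic, with a log2 fold change of -0.61 (SE 0.11) and an adjusted p of 0.0328 by edgeR's quasi-likelihood test. The adjusted p was 0.0686 without mimic replicate 3 and 0.0715 without mimic replicate 4. Of 10 genes 8 were tested, with 2 above 0, 6 below and a median of -0.30. At an unadjusted p under 0.05 there were 4 of the 8, against 24.8% of all tested genes. By edgeR's quasi-likelihood test 2.29% of all tested genes fell past the threshold. The folate transporters Slc19a1 and Slc46a1 had log2 fold changes of -0.28 (SE 0.11) and -0.32 (SE 0.32), and the riboflavin transporters Slc52a2 and Slc52a3 had -0.37 (SE 0.11) and 0.54 (SE 0.17).

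Among 16 transcription factors of the enterocyte, 1 rose and 1 fell by edgeR's quasi-likelihood test. Over all tested genes 1.28% rose and 2.29% fell by that test. At an unadjusted p under 0.05 there were 5 of the 16, against 24.8% of all tested genes. The exact test called 3, DESeq2 4 and limma on TPM 0 of the 15 it tested. Cdx1, an intestinal homeobox factor, went from 69.44 and 64.76 TPM in the controls to 96.09 and 98.11 TPM with the mimic. Its log2 fold change was 0.47 (SE 0.10), with an adjusted p of 0.0477 by edgeR's quasi-likelihood test, and of 0.211 without mimic replicate 3 and 0.0740 without mimic replicate 4. Maf, a factor of maturing enterocytes, went from 8.84 and 5.31 TPM to 1.97 and 3.25 TPM, with a log2 fold change of -1.51 (SE 0.28) and an adjusted p of 0.0374 by edgeR's quasi-likelihood test. Hnf4a and Cdx2 had log2 fold changes of 0.24 (SE 0.11) and 0.32 (SE 0.089), and Vdr, the vitamin D receptor, had -0.49 (SE 0.12), none of which passed. Over the 10 lists 130 of 140 genes were tested, and edgeR's quasi-likelihood test called 9. Of all 17155 tested genes it called 220 (1.28%) higher and 392 (2.29%) lower. The lists were chosen with earlier results of these data known.

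**Figure D5:**
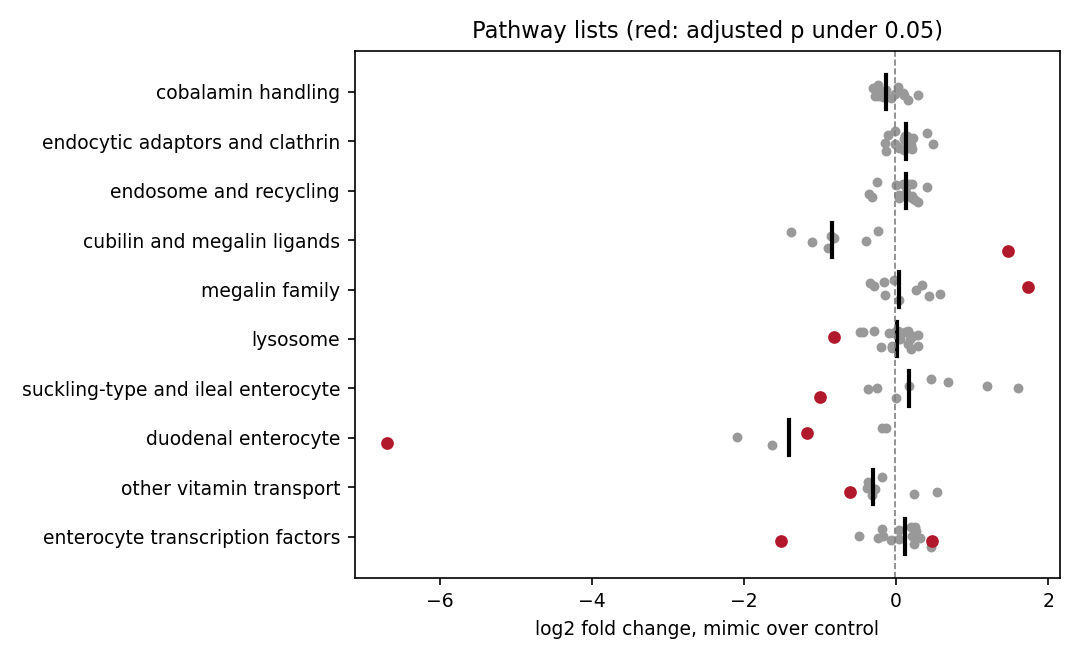
Each point is the log2 fold change, mimic over control, of a tested gene in 1 of the 10 lists, black bars are list medians, the dashed line is the median of all tested genes, and red points passed an adjusted p of 0.05 in edgeR's quasi-likelihood test. The cobalamin, adaptor and endosome lists lie within -0.36 and 0.48 with no red point, and the farthest point is Slc40a1 at -6.69.

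The libraries carried the markers of intestinal epithelium and little of other tissues. Of 9 epithelial markers all were tested, their summed level was between 4871 and 5162 CPM, and their log2 fold changes lay between -0.60 (Krt18, adjusted p = 0.0942 by edgeR's quasi-likelihood test) and 0.47 (Cdx1, the 1 that passed), with a median of 0.0063 (Epcam). Of 8 mesenchymal markers all were under 1 TPM, their sum was 0.50 to 0.72 TPM, and Col1a2, Col3a1, Dcn and Lum were at 0 in all 4 libraries. Endothelial markers summed to between 0.16 and 0.43 TPM with Cdh5 and Kdr at 0, and leukocyte and macrophage markers to between 2.30 and 2.88 TPM, of which 7 of 8 genes were under 1 TPM. Among epithelial cell types, 1 of 8 enterocyte markers fell by edgeR's quasi-likelihood test (Anpep, log2 fold change -2.14, adjusted p = 0.00812). By the same test 1 of 4 stem cell markers fell (Lgr5, -1.38, adjusted p = 0.0369), and 2.29% of all tested genes fell. At an unadjusted p under 0.05 there were 2 of the 8 and 2 of the 4 (24.8% over all tested genes). The exact test called 2 enterocyte and 2 stem cell markers, DESeq2 1 and 2, and limma on TPM 0 of each. The stem cell markers went both ways, with 2 below 0 and 2 above, Smoc2 at 0.48 (SE 0.13) and Olfm4 at 0.22 (SE 0.36). All 4 Paneth cell markers had a log2 fold change below 0, with a median of -0.73, from -1.03 (Ang4, adjusted p = 0.0512 by edgeR's quasi-likelihood test) to -0.25 (Lyz1). Paneth, goblet, enteroendocrine and tuft cell markers had 0 calls among 14 by edgeR's quasi-likelihood test, with 3 at an unadjusted p under 0.05 (24.8% over all tested genes). They had 2 calls each by the exact test and DESeq2, and 0 by limma on TPM. The summed enterocyte markers stood at 6086 and 7038 CPM in the controls against 5202 and 5121 CPM with the mimic. Without Anpep the 7 others summed to 4235 and 5792 CPM in the controls against 4913 and 4709 CPM with the mimic, so the groups then overlapped. Sis made up the largest part of the latter sum, at 2117 and 2532 CPM in the controls against 2666 and 2527 CPM with the mimic. Of the 8 markers 6 had a log2 fold change below 0 and 2 above, with a median of -0.33. Fabp1 had -0.91 (SE 0.28, adjusted p = 0.109 by edgeR's quasi-likelihood test), with groups that did not overlap, as for 29.5% of all tested genes in the lower direction. Apoa4 had -0.56 (SE 0.26), with groups that overlapped. The part of these markers in the levels of Cubn and Amn was not tested. In bulk libraries fewer cells of a type and less RNA per cell cannot be told apart.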

How the data were processed

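The authors trimmed single-end reads with Trimmomatic and quantified them against GRCm38 (mm10) transcripts with RSEM. They deposited expected counts per gene, not normalized, and TPM, scaled to the same total per library. The annotation release and strand setting are not given in the sources used here, and the paper describes ribosomal RNA depletion where the sample labels describe poly(A) selection. Of the columns in each file, 3 matched no sample and were not used.

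For the test, expected counts were rounded, filtered (filterByExpr) and scaled (TMM), and the groups were compared with edgeR 4.0.16 (glmQLFit, glmQLFTest) under R 4.3.3. The Benjamini-Hochberg adjustment covered 17155 genes, with a threshold of 0.05. Intervals are 95%, and the common biological coefficient of variation was 0.13. The steps were checked on simulated counts. Libraries of a group were not copies of each other, since chi-square over its degrees of freedom was 33.9 between the controls and 17.8 between the mimic libraries. Symbols matched 55141 of 55487 identifiers, and GENCODE release 21 gave coordinates and sequences. Precision was limited by the 2 libraries per group and, for genes near 0 counts, also by depth.

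The 7 genes and all gene lists were chosen with earlier results of these data known. The named genes are the 7, every list gene past the threshold, up to 4 others per list with the highest mean TPM, and the 6 most like Cubn. A gene that this rule names is not reported here. Neighbours were taken by position, and other named genes were added after their values were seen. Alternatives were edgeR's exact, robust and legacy tests (the last added after the data were seen), DESeq2 1.42.0, RLE and no normalization factors, other count filters, limma 3.58.1 on log2(TPM + 1) and log2(TPM + 0.1), and leaving out each library. A fold change on the log2(TPM + pseudocount) scale understates that of a low gene. Plots were drawn with matplotlib 3.10.9.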

Additional observations from a re-analysis of the deposited data

How the results depend on the processing

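The counts of genes past the threshold depended on the test. Against 220 higher, 392 lower and 9 list genes, edgeR's exact test gave 761, 1027 and 19, DESeq2 gave 613, 709 and 15, no filter on low counts gave 67, 125 and 2, limma on log2(TPM + 1) gave 32, 43 and 2, limma on log2(TPM + 0.1) gave 11, 16 and 1, and limma on log2(TPM + 1) without a filter gave 2, 0 and 0. Leaving out each library in turn gave 159 to 1152 higher, 214 to 1213 lower and 6 to 24 list genes, the most without control replicate 2 and the fewest lower genes without mimic replicate 3, and the remaining library of that group was then assumed to vary like the other group. The log2 fold change of Cubn was 1.54 by limma on log2(TPM + 1), with or without a filter, and 2.79 to 3.90 when a library was left out. Amn passed by edgeR's exact test alone, at a log2 fold change of 0.61 and an adjusted p of 0.0399, and lay between 0.44 and 0.77 when a library was left out. Genes near 0 changed sign. Leaving out a library moved Dab2 between -1.52 and 1.73, reversed without control replicate 1 (1.73) and mimic replicate 3 (0.25), moved Lrpap1 between -0.31 and 0.068, and moved Tcn2 between -0.080 and 0.062. Tcn2 was also above 0 with no normalization factors (0.0096), and by limma on log2(TPM + 1), with or without a filter (0.051), and on log2(TPM + 0.1) (0.052). Cd320 stayed below 0 in all 15 alternatives, between -0.42 and -0.14. The cause was not tested for any of these. Lrp2 could be fitted only without the filter, where it stays under 3 counts in every library and has no fold, and Dab2 gave none where its counts or TPM fell below the filter. No paired analysis was possible because the groups share no replicate number. At 0 or 1 counts, a difference in Lrp2 was not detectable at this depth.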
